A study of Mus musculus with 3 samples.

Results

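The 39 genes described here encode actin itself and the proteins that build, trim, bundle and anchor actin filaments in mouse dendritic cells. They were picked by symbol for these roles, and each matched a single row among 37991 gene rows. Dendritic cells were grown from mouse marrow with granulocyte-macrophage colony-stimulating factor, and the floating cells were collected on day 6 and kept for a further 48 h. The rATB library came from cells given 800 ng/ml of recombinant articulatin B chain, a chain of a mistletoe protein. The buffer library carries a dose label of 1 ng/ml whose meaning is unclear, and the control library is labelled ctrl with a dose of 0 ng/ml. Strain and age of the mice, and how many animals fed each culture, were not stated in the labels. Each group was 1 library, so no p-value is given and no difference has a replicate check.

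Actin monomers join into filaments whose growth pushes the cell edge forward. The Arp2/3 complex starts branches on existing filaments once proteins of the WASP family activate it. Profilin, cofilin and thymosins set the pool of monomers, capping proteins stop growth, and fascin bundles filaments into the long processes of mature dendritic cells, which also take apart their adhesive podosomes and migrate to lymph nodes.

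A level is given in units, where 1 unit is 1 read per 1000000 reads of the control library after the deposited scaling. Totals were 15203139 reads for rATB, 16105080 for buffer and 17776492 for control. Ratios carry exact 95% intervals for counting error, which do not cover the spread between cultures. All 10 dendritic cell markers had a mean of at least 1 unit, and their sums were 10724, 13763 and 16600 units in rATB, buffer and control. The markers did not move together: rATB was lowest in 5, Cd74, H2-Ab1, H2-Aa, Ciita and Itgax, and highest in 5, Flt3, Zbtb46, Irf4, Ccr7 and Batf3. Of 10 macrophage and monocyte markers 9 did so, with sums of 3785, 4090.4 and 5302 units. In bulk RNA generally, fewer cells of a type and less RNA per cell cannot be told apart. Of 21 markers of B cells, T and NK cells, erythroid cells, fibroblasts and smooth muscle 3 reached a mean of 1 unit. Marker sums in the same order of libraries were 40.8, 41.7 and 52.4 units for neutrophils, 36.1, 31.6 and 26.8 for mast cells and basophils, and 56.7, 33.7 and 39.8 for endothelium. The mast cell and basophil sums came nearly all from Kit, and the other genes of that list had at most 3 reads in a library. The endothelial difference came nearly all from Kdr, at 44.4 units in rATB and 21.8 in buffer, while Pecam1 was close in all libraries. The megakaryocyte and platelet list summed to 1512, 662 and 649 units, nearly all from Pf4 and Ppbp, while its defining genes Gp9 and Gp1bb had at most 1 read in a library.

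Actin genes were among the most abundant transcripts of these cells, and none differed 2-fold between any pair of libraries. All 39 passed a filter on a mean of at least 1 unit, and 32 ranked within the first 1000 of the 12559 genes past it. Together they took 3.07% of reads in rATB, 3.20% in buffer and 3.08% in control. A difference of at least 1 in log2(level + 1) was met by 0 of 39 genes between rATB and buffer, where 1.57% of all genes met it. It was met by 0 of 39 between rATB and control, beside 1.83% of all genes, and by 0 of 39 between buffer and control, beside 0.0557%. Counts of 0 are near these background shares and are no result about the actin genes. At a smaller difference of 0.5, 0 members were higher and 0 lower than in buffer, beside 4.48% and 4.7% of all genes. Against control 0 were higher and 2 lower at that size, Myo1f and Marcksl1, beside 4.14% and 5.62%. Per kilobase of the principal transcript, rATB levels ran between 7.52 units for Vcl and 10266 units for Tmsb4x, with a median of 139.

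Smaller differences leaned towards lower levels in rATB. The rATB level lay below both other libraries, beyond counting error against each, in 20 of 39 genes (51.3%), beside 15.4% of all genes past the filter. It lay above both in 5 genes (12.8%), Fscn1, Arpc1a, Arpc3, Myh9 and Tmsb4x, beside 11.4%. Counting intervals are narrow for abundant genes, and among the 4354 genes at or above the lowest actin gene the shares were 24.1% below and 18.1% above. That set is bounded from below only, and the actin genes, with a median rank of 248, sit high within it. Of the 20 genes below, 19 stayed so under all 3 scalings tried, with Marcks the exception, and all 5 genes above stayed above. The median of rATB minus buffer was -0.053 in log2(level + 1) over the 39 genes, beside -0.0024 over all genes, and that of rATB minus control was -0.13, beside -0.056. With reads per 1000000 the rATB minus buffer median was -0.088, beside -0.035, with 10 genes higher and 29 lower in place of 15 and 24. By the deposited scaling, buffer lay above both others in 2 genes, beside 2.36% of all genes, and below both in 3, beside 7.81%. Control lay above both in 21, beside 11.6% of all genes and 24.1% of those at or above the lowest actin gene, and below both in 3, beside 2.36%. These counts depend on the scaling: with reads per 1000000 reads of each library and with TMM factors (trimmed mean of M-values), control lay above both in 8 and 12 genes and buffer in 9 and 6. The direction between buffer and control turned in 11 genes. The marker sums of dendritic cells and of macrophages and monocytes were also lowest in rATB and highest in control, and their part in these differences was not tested.

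**Figure D1:**
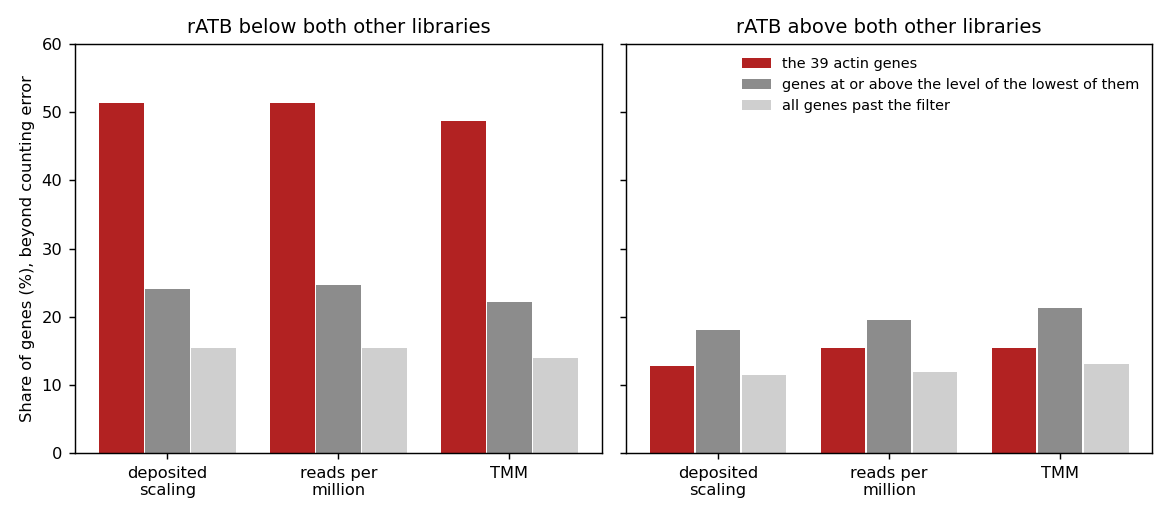
Share of genes, in percent, whose rATB level lay below (left) or above (right) both other libraries beyond counting error, for the 39 actin genes, genes at or above the lowest of them, and all genes past the filter, under 3 scalings. Below both, the actin genes reach 48.7% to 51.3% and the genes at or above the lowest of them 22.3% to 24.7%.

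**Figure D2:**
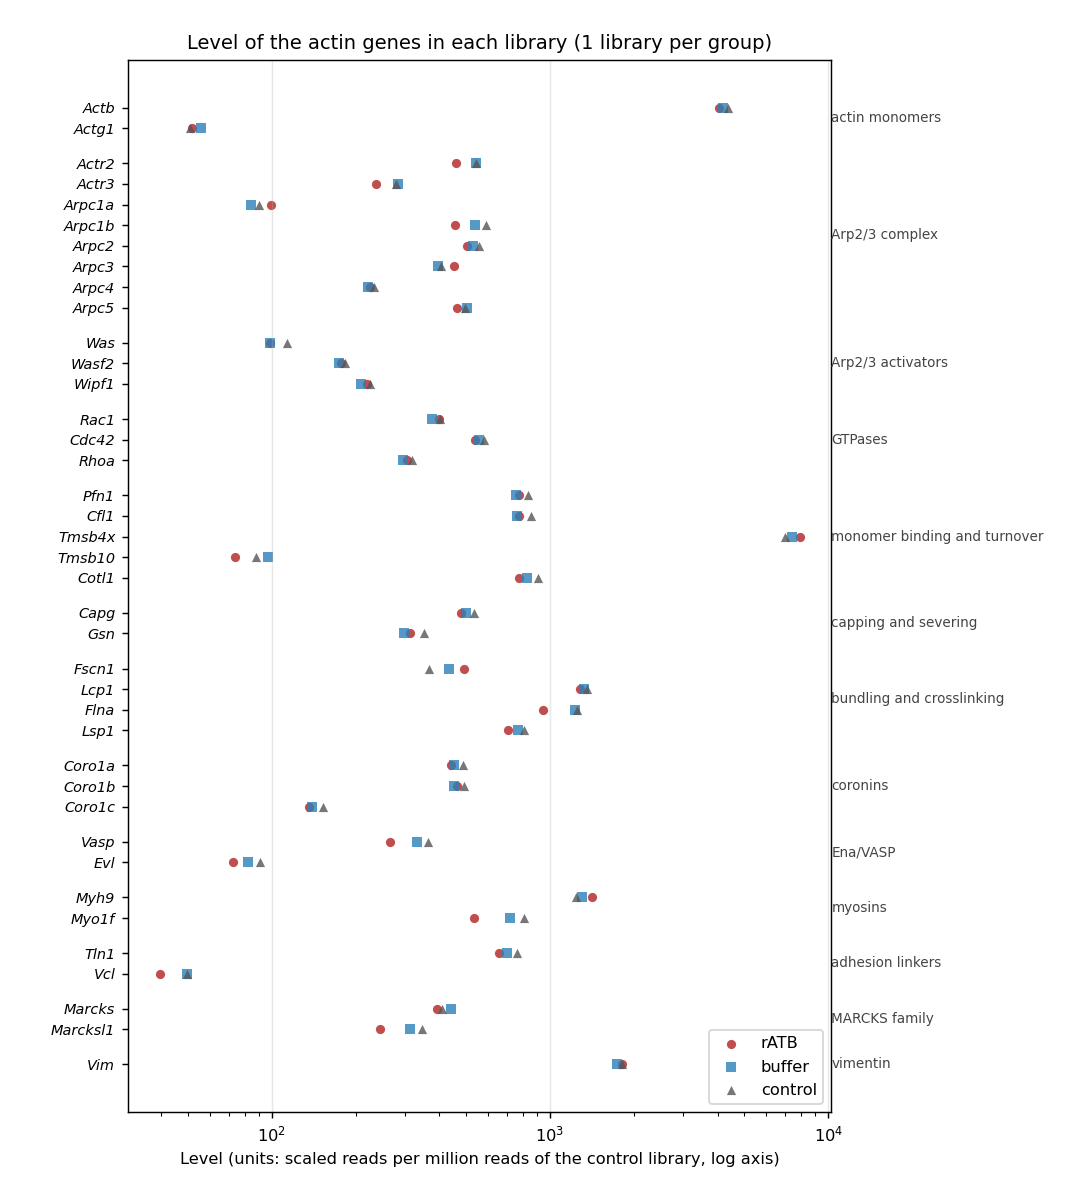
Level of each actin gene in units on a log axis, grouped by role, with 1 point for each of the rATB, buffer and control libraries. Vcl is lowest, at 39.6 to 49.7 units, and Tmsb4x highest, at 6965 to 7885 units; the points of a gene lie close together.

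Fascin is the bundling protein of mature dendritic cells, and its gene Fscn1 (ENSMUSG00000029581; GRCm38 chr5:142960343-142973185, plus strand, GENCODE M21) measured 491 units in rATB, 432 in buffer and 366 in control. Its rATB/control ratio of 1.34 (interval 1.30 to 1.38) was the highest of the 39 genes, and rATB/buffer was 1.14 (interval 1.10 to 1.17). Buffer was itself above control, at 1.18 (interval 1.14 to 1.22), the highest buffer/control ratio of the 39. The libraries thus stood in steps, and the step between rATB and buffer was no larger than that between buffer and control. Ccr7, which encodes a chemokine receptor for homing to lymph nodes, ran in the same order at 1252, 723 and 621 units. Other dendritic cell markers ran the opposite way, such as Cd74 at 6059, 8533 and 10811 units. The 100 bases before the RefSeq start of Fscn1, the member with that highest ratio, are shown with a TATAAA box in capitals (RefSeq, GRCm38.p6, chr5:142960255-142960354, plus strand, 5′ to 3′).
Fscn1: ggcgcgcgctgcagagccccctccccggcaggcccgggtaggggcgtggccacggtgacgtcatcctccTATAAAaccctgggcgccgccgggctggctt

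The other 3 bundling and crosslinking genes were lower in rATB. Filamin A joins filaments into nets and ties them to membrane receptors, and its gene Flna (ENSMUSG00000031328; GRCm38 chrX:74223461-74249820, minus strand) measured 947 units in rATB, 1233 in buffer and 1248 in control. The ratios were 0.768 to buffer (interval 0.752 to 0.785) and 0.759 to control (interval 0.743 to 0.775). Buffer and control were close, at 0.988 (interval 0.969 to 1.01) by the deposited scaling, so the rATB library stood apart from both. Lcp1, which encodes the leukocyte bundling protein L-plastin, measured 1282, 1323 and 1361 units in rATB, buffer and control. Lsp1, which encodes a leukocyte actin-binding protein, measured 709, 769 and 808 units. In these genes rATB was again below both, by smaller margins than in Flna.

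Beta-actin is encoded by Actb (ENSMUSG00000029580; GRCm38 chr5:142903115-142906754, minus strand), which measured 4044 units in rATB, 4195 in buffer and 4378 in control. The ratios were 0.964 to buffer (interval 0.954 to 0.974) and 0.924 to control (interval 0.914 to 0.933). A gene often used to normalise others was thus slightly below both in rATB. Actg1, the gene of gamma-actin, measured 51.7, 55.7 and 50.7 units, and the intervals of both rATB ratios included 1. Its level is uncertain because of near-identical copies, described below.

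Subunits of the Arp2/3 complex, which nucleates branches, differed in both directions. The rATB level was below both others in 5 of 8 subunit genes, Actr2, Actr3, Arpc1b, Arpc2 and Arpc5, and above both in Arpc1a and Arpc3, where 15.4% of all genes were below and 11.4% above (24.1% and 18.1% at or above the lowest actin gene). Actr2, which encodes the actin-related subunit Arp2, measured 461 units in rATB, 543 in buffer and 540.4 in control, or 0.849 of buffer (interval 0.823 to 0.875). Actr3, which encodes its partner Arp3, measured 237, 285 and 279 units, or 0.832 of buffer (interval 0.797 to 0.868). These genes kept their proportion: Actr2 took 66.1% of their joint reads in rATB, 65.6% in buffer and 66.0% in control, with overlapping intervals. Reads counted at near-identical copies of Actr3, described below, are left out, so the share of Actr2 may be overstated.

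The subunit ARPC1 exists in alternative forms, and their genes differed in opposite directions. Arpc1b, the form prominent in blood cells, measured 456 units in rATB, 536 in buffer and 589 in control, or 0.850 of buffer (interval 0.824 to 0.877) and 0.773 of control (interval 0.750 to 0.797). Arpc1a, the more widely expressed form, measured 99.2, 84.4 and 89.7 units, or 1.18 times buffer (interval 1.09 to 1.26) and 1.11 times control (interval 1.03 to 1.19). Arpc1a therefore took 17.9% of the joint reads in rATB (interval 17.1% to 18.7%), 13.6% in buffer (interval 12.96% to 14.3%) and 13.2% in control (interval 12.6% to 13.8%). Library scaling does not enter this share, and the rATB interval overlapped neither of the others. Reads counted at a near-identical copy of Arpc1b, described below, are left out, so the share of Arpc1a may be overstated. Exons of Kpna7 overlap Arpc1a and exons of Pdap1 overlap Arpc1b on the other strand, and the kit does not mark strand, so such reads cannot be told apart. Arpc3 measured 452, 396 and 407 units, or 1.14 times buffer (interval 1.10 to 1.18). Arpc2, Arpc4 and Arpc5 had rATB/buffer ratios of 0.958, 1.01 and 0.923.

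**Figure D3:**
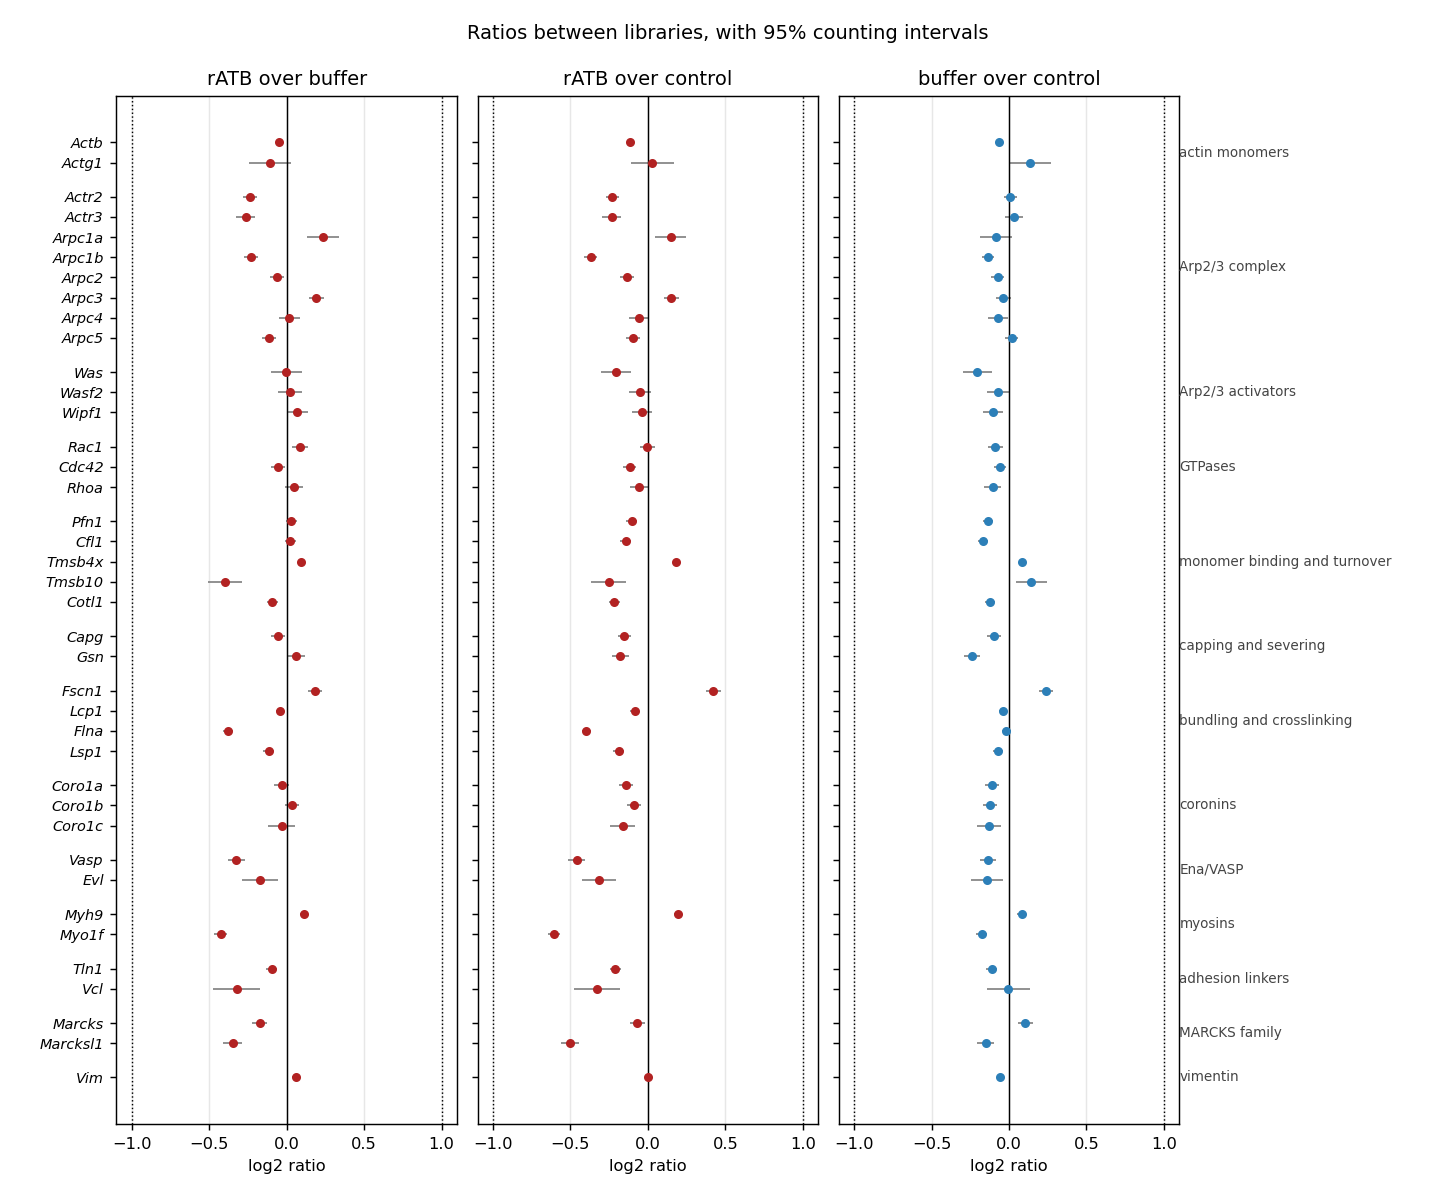
Log2 ratio of rATB over buffer, rATB over control and buffer over control for each actin gene, with 95% counting intervals and dotted lines at a 2-fold difference. No point reaches a dotted line; Myo1f, at 0.744 of buffer and 0.658 of control, is farthest left, and Fscn1, at 1.34 times control, farthest right.

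Activators of the complex were close in rATB and buffer. Was, which encodes the Wiskott-Aldrich syndrome protein of blood cells, measured 98.3 units in rATB, 98.5 in buffer and 113 in control. Its partner gene Wipf1 measured 219, 209 and 225 units, and Wasf2, which encodes the WAVE2 activator of lamellipodia, 177, 175 and 184. The interval of rATB/buffer included 1 in all 3. Rac1, Cdc42 and Rhoa encode the GTPases that drive lamellipodia, filopodia and contraction, and their rATB/buffer ratios were 1.06 (interval 1.02 to 1.10), 0.961 (interval 0.933 to 0.990) and 1.03 (interval 0.994 to 1.08). Cdc42 was the GTPase gene below both other libraries in rATB, at 536 units against 557 and 581.

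Thymosin beta-4 holds free actin monomers, and its gene Tmsb4x measured 7885 units in rATB, 7392 in buffer and 6965 in control, rank 7 of all genes. The ratios were 1.07 to buffer (interval 1.06 to 1.08) and 1.13 to control (interval 1.12 to 1.14). Tmsb10, which encodes the related thymosin beta-10, went the other way at 73.7, 97.2 and 87.9 units, or 0.759 of buffer (interval 0.703 to 0.818). Cotl1, which encodes a coactosin-like filament binder, measured 776, 829 and 902 units. Pfn1 and Cfl1, the genes of profilin and the severing protein cofilin, were close in rATB and buffer, with ratios of 1.02 each and intervals that included 1.

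The capping and severing genes among the 39 differed little from buffer. Capg, which encodes a capping protein of myeloid cells, measured 480.1 units in rATB, 499 in buffer and 533 in control, and was below both in rATB, at 0.963 of buffer (interval 0.933 to 0.993). Gsn, the gelsolin gene, measured 313, 299.6 and 354 units, and its buffer/control ratio of 0.847 (interval 0.817 to 0.879) was the lowest of the 39 genes. Coronins link Arp2/3 branches to cofilin-driven turnover, and Coro1a, Coro1b and Coro1c had rATB/buffer ratios of 0.977, 1.02 and 0.977, with intervals that all included 1. Exons of Ptprcap overlap Coro1b on its own strand, and those of Ttll3 overlap Arpc4.

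Proteins of the Ena/VASP family keep filament ends growing, and both family genes among the 39, Vasp and Evl, were lower in rATB. Vasp measured 266 units in rATB, 333 in buffer and 366 in control, or 0.798 of buffer (interval 0.767 to 0.831) and 0.727 of control (interval 0.699 to 0.756). Evl measured 72.6, 81.9 and 90.5 units, or 0.887 of buffer (interval 0.820 to 0.960). Vasp took 78.5% of their joint reads in rATB, 80.3% in buffer and 80.2% in control, with overlapping intervals. Enah, a family gene in the wider list described below, was not lower beyond counting error, at 43.7, 45.3 and 41.5 units. Its ratios were 0.966 to buffer (interval 0.871 to 1.07) and 1.05 to control (interval 0.949 to 1.17).

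The lowest ratios of the 39 genes were those of Myo1f (ENSMUSG00000024300; GRCm38 chr17:33555707-33607764, plus strand), which encodes a leukocyte myosin that links membrane and actin. It measured 532 units in rATB, 715 in buffer and 808 in control. The ratios were 0.744 to buffer (interval 0.723 to 0.765) and 0.658 to control (interval 0.640 to 0.676). Myh9, the heavy chain gene of the contractile motor nonmuscle myosin IIA, went the other way at 1414, 1308 and 1237 units, or 1.08 times buffer (interval 1.06 to 1.10).

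Adhesion linkers connect filaments to integrins. Vcl, the vinculin gene, measured 39.6 units in rATB, 49.6 in buffer and 49.7 in control, on 623, 847 and 884 reads. That was 0.798 of buffer (interval 0.719 to 0.886) and 0.796 of control (interval 0.717 to 0.883). Tln1, the talin gene, was below both by less, at 657, 703 and 759 units. Exons of Ap3m1 and Creb3 overlap Vcl and Tln1 on the other strand.

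MARCKS proteins bind both membrane and actin. Marcksl1 measured 245 units in rATB, 313 in buffer and 348 in control, or 0.784 of buffer (interval 0.752 to 0.818) and 0.706 of control (interval 0.678 to 0.735). Marcks measured 391, 441 and 410.1 units. Its share of the joint reads was 61.4% in rATB (interval 60.5% to 62.4%), 58.5% in buffer (interval 57.7% to 59.4%) and 54.1% in control (interval 53.3% to 55.0%). In this pair, unlike the ARPC1 genes, buffer and control also lay apart. Vim, the gene of the intermediate filament vimentin, measured 1819, 1745 and 1817 units, close in rATB and control.

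Processed copies of some actin genes sit elsewhere in the mouse genome, and reads from a gene and a near-identical copy cannot be told apart with certainty. In GENCODE M21, 9 of the 39 genes had copies of at least 95% identity over at least 150 bases, 16 copies in all, of which 11 were rows of the table. Copies of Actg1 held 80.3% of the reads of gene and copies in rATB, 77.0% in buffer and 78.9% in control. The copy of Tmsb10, Gm9844, held 65.4%, 63.7% and 65.7%, copies of Actr3 held 38.7%, 38.8% and 40.3%, and that of Arpc1b held 28.8%, 28.1% and 28.9%. The copy of Cfl1 held 20.7%, 20.5% and 20.5%, and copies of Rhoa held 19.3%, 20.0% and 19.8%. The levels of these genes may therefore be understated. With copies added, rATB was 0.831 of buffer for Actr3, 0.859 for Arpc1b and 0.798 for Tmsb10, near the values above. For Actg1 the direction turned, at 1.08 (interval 1.04 to 1.13) with copies and 0.928 (interval 0.844 to 1.02) without. With copies, rATB was also 1.09 times control for Actg1 (interval 1.04 to 1.14). Actg1 with its copies was thus above both other libraries, and the count of genes above both leaves it out. Adding the copies was chosen after the data were seen.

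**Figure D4:**
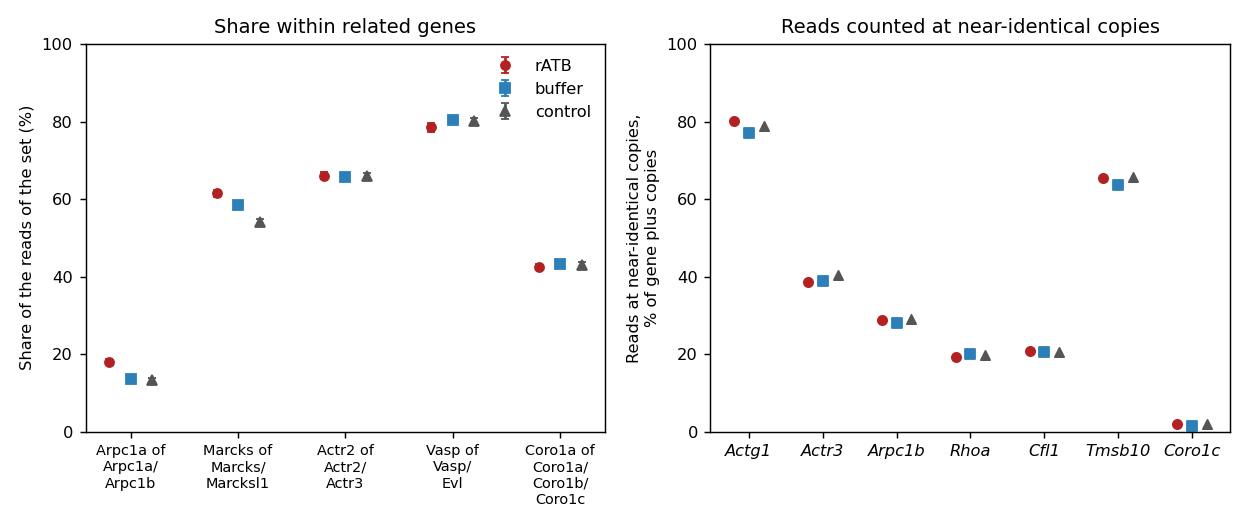
Left, percent of joint reads taken by the first gene of each related set in the rATB, buffer and control libraries, with exact 95% binomial intervals. Arpc1a takes 17.9%, 13.6% and 13.2%, and reads at near-identical copies are left out. Right, percent of the reads of a gene and its copies that was counted at the copies, up to 80.3% for Actg1.

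Many actin genes are textbook targets of SRF, the serum response factor, which binds the CArG box and works with the coactivators encoded by Mkl1 and Mkl2. Srf measured 36.1 units in rATB, 34.6 in buffer and 47.1 in control, Mkl1 140.9, 146 and 140.6, and Mkl2 46.0, 62.2 and 61.4. RefSeq promoter windows matched 33 of the 39 genes in 43 windows, and the 250 bases before each start were searched on both strands. A CArG box stood in 3 windows (6.98%), beside 1.47% of 32851 windows of all genes. The 6 members without a matched window were not searched, and neither were bases farther before a start, so a box there would be missed. The matches in the windows searched are shown with the box in capitals (RefSeq, GRCm38.p6, 5′ to 3′ on the strand of the gene).
Actg1, chr11:120348551-120348610, minus strand: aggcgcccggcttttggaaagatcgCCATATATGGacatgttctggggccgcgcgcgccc
Vcl, chr14:20929148-20929205, plus strand: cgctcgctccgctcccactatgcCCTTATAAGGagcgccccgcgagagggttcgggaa
Arpc4, chr6:113377863-113377897, plus strand: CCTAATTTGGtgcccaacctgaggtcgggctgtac

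The boxes began 90, 227 and 250 bases before the start, and none overlapped a match of another motif searched. These genes shared no direction, with rATB/buffer ratios of 0.928, 0.798 and 1.01. The GC box GGGCGG stood in 26 of 43 windows (60.5%), beside 32.7% of all windows, and TATAAA in 4 (9.30%), those of Fscn1, Cdc42, Myh9 and Vim, beside 12.4%. The AP-1 site TGACTCA stood in 0 windows, beside 4.46%. A match describes letters and is not a bound site.

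A wider list of 109 other actin pathway genes was read in the same way, and 101 passed the filter. At a difference of 1 in log2(level + 1), 1 gene was higher in rATB than in buffer, beside 0.9% of all genes, and 0 were lower, beside 0.669%. Against control 1 was higher, beside 0.948%, and 0 were lower, beside 0.884%. That gene was Scin, which encodes adseverin, a severing and capping protein related to gelsolin. It measured 60.6 units in rATB, 23.8 in buffer and 20.3 in control, or 2.54 times buffer (interval 2.26 to 2.86) and 2.99 times control (interval 2.64 to 3.38). The medians of the 101 genes were -0.020 against buffer and -0.050 against control. The rATB level was above both others in 23 genes and below both in 23 (22.8% each). Over all genes the shares were 11.4% above and 15.4% below. Over those at or above the lowest actin gene they were 18.1% and 24.1%, but the wider list also holds genes below that level.

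Cofilin, which severs filaments, is switched off by LIM kinases and on by slingshot phosphatases, and 3 genes of these enzymes were among the 6 highest or 6 lowest of the wider list. Limk2 measured 63.6 units in rATB, 47.6 in buffer and 47.2 in control, or 1.34 times buffer (interval 1.22 to 1.47). Limk1 went the other way at 37.2, 50.2 and 55.1 units, or 0.742 of buffer (interval 0.667 to 0.825). The phosphatase gene Ssh1 was higher, at 138, 109.96 and 109.2 units, while its relative Ssh2 was near buffer, at 1.05 (interval 0.941 to 1.18). Genes acting on cofilin thus differed in both directions while Cfl1 stayed near its buffer level. The other high genes were Elmo1, part of a Rac activator, at 1.50 times buffer (interval 1.35 to 1.67), the GTPase gene Rhof at 1.49 (interval 1.26 to 1.76), and Cyfip2, of the WAVE complex, at 1.35 (interval 1.17 to 1.56).

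Capza2, which encodes a subunit of the protein that caps growing filament ends, was the lowest of the wider list against buffer, at 273 units in rATB, 402 in buffer and 392.4 in control. That was 0.678 of buffer (interval 0.653 to 0.705) and 0.696 of control (interval 0.670 to 0.723). The partner subunit gene Capzb measured 411, 382 and 405 units. Pak1, which encodes a kinase downstream of Rac and Cdc42, measured 33.6, 48.5 and 55.7 units, or 0.691 of buffer (interval 0.619 to 0.772) and 0.603 of control, the lowest ratio to control of these 6. Mkl2, Plek and Myh10 completed the lowest 6, at 0.738, 0.757 and 0.745 of buffer. Of 11 adhesion and membrane linker genes, rATB was below both other libraries in 5 and above in 0, with a median of -0.12 against buffer. Of 24 nucleation genes it was below in 5 and above in 8, with a median of 0.036. The shares over all genes were 15.4% below and 11.4% above, and over those at or above the lowest actin gene 24.1% and 18.1%. Both classes also hold genes below that level.

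**Figure D5:**
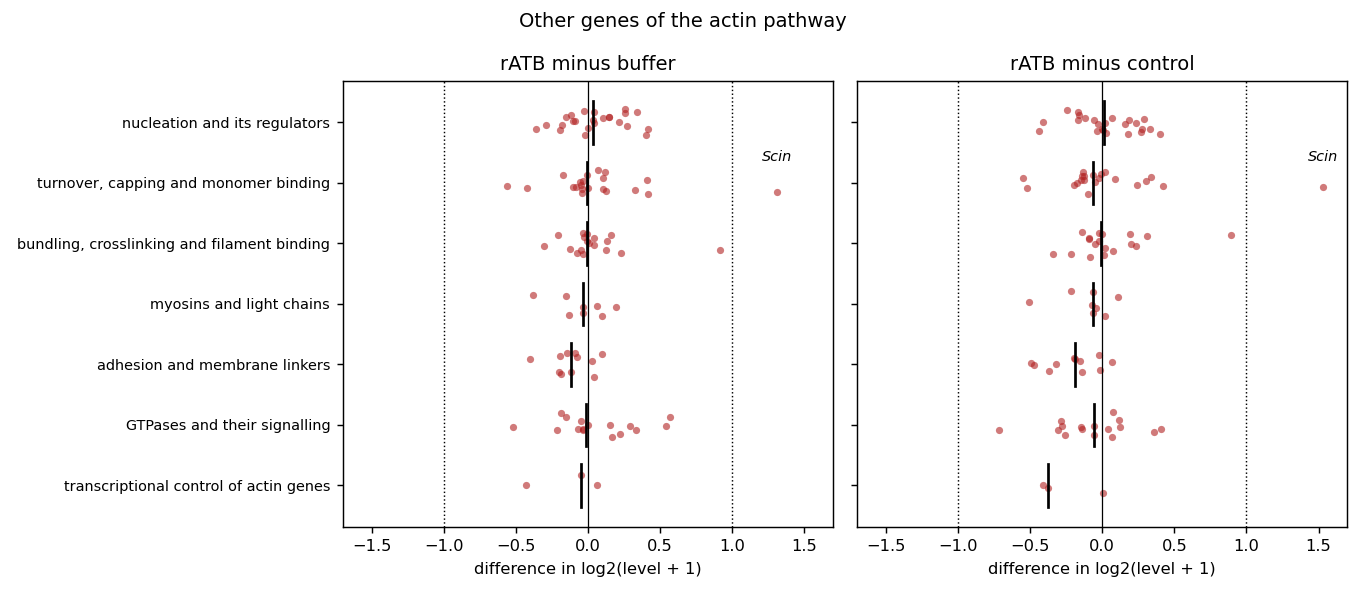
Difference in log2(level + 1) of rATB minus buffer and rATB minus control for the 101 other actin pathway genes past the filter, by class, with 1 point per gene, a bar at each class median and dotted lines at 1 and -1. Scin, at 1.31 and 1.53, is the gene beyond a dotted line.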

How the data were processed

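TopHat2 2.0.13 is the aligner named in the submitters' processing notes, which also name GRCh37, a human build, although the gene identifiers are mouse. How reads were counted and scaled is not stated. Per the labels' protocols, TruSeq RNA libraries, a kit that does not mark strand, were read as pairs of 150 bases. The authors' deposited columns hold log2 values, with error cells for the log2 of 0. On the linear scale 100% of values were whole multiples of the smallest in their column (tolerance 1e-06), which gave back reads and a deposited factor of 1.13 for rATB, 1.04 for buffer and 1 for control. Error cells were taken as 0 reads. No count model was run, and each group had 1 library.

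Rows of 1 symbol were summed after 25 damaged symbols were restored, and a mean of at least 1 unit was required. With 1 library per group, a call is a difference of at least 1 in log2(level + 1), which understates low genes. Ratio intervals are exact conditional (Clopper-Pearson) 95% intervals, which cover counting error only, since reads without molecular identifiers are not independent molecules. A count of 0 allows up to 0.191, 0.176 and 0.169 units in rATB, buffer and control (3 counts). Factors by the trimmed mean of M-values (TMM) were computed from the recovered reads. Lengths and positions are those of GENCODE M21, and copies were found with blastn 2.17.0. Other tools were Python 3.11.15, numpy 2.4.6, pandas 2.3.3, scipy 1.17.1 and matplotlib 3.10.9. Calls and intervals were run on simulated counts that held counting error only, with changes larger than any among the actin genes. That run cannot speak to the spread between cultures or to differences as small as those seen here.

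The 39 genes, the wider list and the markers were chosen with earlier results of these data known. The rule gave full values for Fscn1, Actb, called members and the 12 members in which rATB differed most from both other libraries, and in the wider list for the 6 highest and 6 lowest genes of mean 5 units or more. Ccr7, Srf, Mkl1, Capzb, Enah, Kit, Kdr, Pecam1 and Itga2b were named after their values were seen.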

Additional observations from a re-analysis of the deposited data

How the results depend on the processing

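The counts of actin genes below and above both other libraries in rATB, 20 and 5, were 20 and 6 with reads per 1000000 reads of each library and 19 and 6 with TMM factors. The pseudocount, the filters and the choice of row left these counts as they were. The 0 calls among the 39 genes held under the alternatives run, except that 2 were lower against control at a difference of 0.5. At that size the wider list held 4 higher and 2 lower genes against buffer, and 2 higher and 4 lower against control, beside 4.48%, 4.7%, 4.14% and 5.62% of all genes. With a pseudocount of 0.1 unit it held 2 higher genes against buffer and 2 against control. Scaling moved medians and counts. The median of rATB minus buffer was -0.088 with reads per 1000000 and -0.058 with TMM, against -0.053 as deposited. The median of rATB minus control was -0.085 with reads per 1000000 and -0.088 with TMM, and that of buffer minus control was 0.012 and -0.022 in the same order, against -0.073 as deposited. Buffer lay above both others in 9 and 6 genes, beside 6.83% and 4.25% of all genes, and below both in 0 and 0, beside 3.25% and 5.20%. Control lay above both in 8 and 12 genes, beside 4.92% and 6.80%. By construction these scalings shift buffer minus control by 0.085 and 0.051 in log2. No paired analysis was possible because each group had 1 library. TMM factors were computed directly, not with the planned package. The lowest member had 623 reads in rATB, so counting error limits little, and the spread between cultures is unknown.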

Other observations

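The libraries stood in the order rATB, buffer, control by rising level in 18 of the 39 actin genes (46.2%). That order was seen in 27.7% of all genes past the filter and in 33.3% of those at or above the lowest actin gene. The reverse order was seen in 3 actin genes (7.69%), Fscn1, Myh9 and Tmsb4x, beside 13.8% of all genes and 10.9% of those at or above the lowest actin gene. The place of buffer depends on the scaling. The standard deviation of the differences in log2(level + 1) over the 39 genes was 0.17 between rATB and buffer, 0.20 between rATB and control, and 0.10 between buffer and control. Over all genes past the filter the same pairs gave 0.32, 0.33 and 0.19. Among genes at or above the lowest actin gene the pairs gave 0.26, 0.28 and 0.12. In the wider list Cnn3, named after its values were seen, measured 4.19 units in rATB, 1.76 in buffer and 1.80 in control, on 66, 30 and 32 reads.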
